A study of Mus musculus with 12 samples.

Results

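Tissue inhibitors of metalloproteinases (TIMPs) and the proteases they restrain were followed across brown adipose tissue of mice. The set was defined by gene symbol as Timp1, Timp2, Timp3, Timp4, Mmp2, Mmp9, Mmp14, Mmp15, Adamts1 and Adamts5. Taking every probe that carries 1 of these symbols in the platform annotation gave 12 of 25697 probes. They read 9 of the 10 genes, out of 16593 genes with a probe, and Mmp15 was not analysed here. The tissue came from wild-type mice (WT, 6 samples) and from mice homozygous for a SIRT1 transgene (SIRT1tg, 6 samples), all aged 3 months on the C57Bl/6N background, and total RNA was read on Illumina bead arrays. SIRT1 removes acetyl groups from proteins at the cost of NAD+. The labels name no promoter for the transgene, no founder line and no separate animals. The p-values therefore rest on a spread between samples that may be technical. The number of arrays limits the precision.

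MMPs and ADAMTS enzymes are zinc proteases that cut collagens, proteoglycans and other matrix proteins outside the cell. Most are made as inactive proforms, and once active they are blocked by TIMPs, which bind in the catalytic cleft. In fat, matrix proteolysis accompanies the growth of adipocytes and of the vessels between them, and the membrane-anchored collagenase MMP14 is known to be needed for adipocyte development in mouse white fat. The family holds cross-links: TIMP2 together with MMP14 activates the gelatinase MMP2, and TIMP3, which stays bound to the matrix, also blocks ADAM17 and the ADAMTS aggrecanases.

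The arrays of each group are numbered here from 1 to 6 by a number in their column names. The labels do not explain that number, and the column names do not give the replicate. In each group, Timp4 on arrays 1 to 6 ranked as the authors' processed values of replicates 1 to 6 did. Arrays 1 to 3 of both groups have low numbers and arrays 4 to 6 high ones, here called the low and high number range. Between 11221 and 12108 probes were detected per array, with a detection p under 0.05 against the negative control beads. Levels below are normalised log2 signals, on which undetected probes lie near 4.3 (the Adamts1 probe detected on 0 of 12 arrays averaged 4.32 in WT). Of 12 brown adipocyte markers 11 passed the detection filter, Ucp1 among them on all 12 arrays, while Dio2 was detected on 2. WT 3 and WT 4 stood apart by the macrophage markers, as given beside the results below.

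In SIRT1tg brown fat Timp4 rose 1.70-fold, the only 1 of the 9 measured members to pass the test. Timp3 also read higher, at 1.31-fold, whereas Timp2 read 1.56-fold lower, Timp1 1.52-fold lower, Mmp14 1.45-fold lower, Mmp2 1.36-fold lower and Adamts5 1.28-fold lower, none of which passed. Mmp9 and Adamts1 stood at log2 differences of -0.014 and -0.0012. The test was limma's moderated test over 8035 genes with Benjamini-Hochberg adjustment at 0.05, under which 0.149% of all genes were called, 0.112% as higher and 0.0373% as lower. At an unadjusted p under 0.05, 2 members were higher and 5 lower, among them Timp1, which passed the detection filter through WT alone. Of all genes 7.62% were higher and 7.63% lower at that level, together 15.2%. Without WT 3 and WT 4 the members numbered 2 higher and 2 lower at that level. The share of all genes was not taken for that smaller fit, so these counts cannot be set against it. The median log2 difference of the 9 members was -0.36, beside -0.01 over all genes tested.

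**Figure D1:**
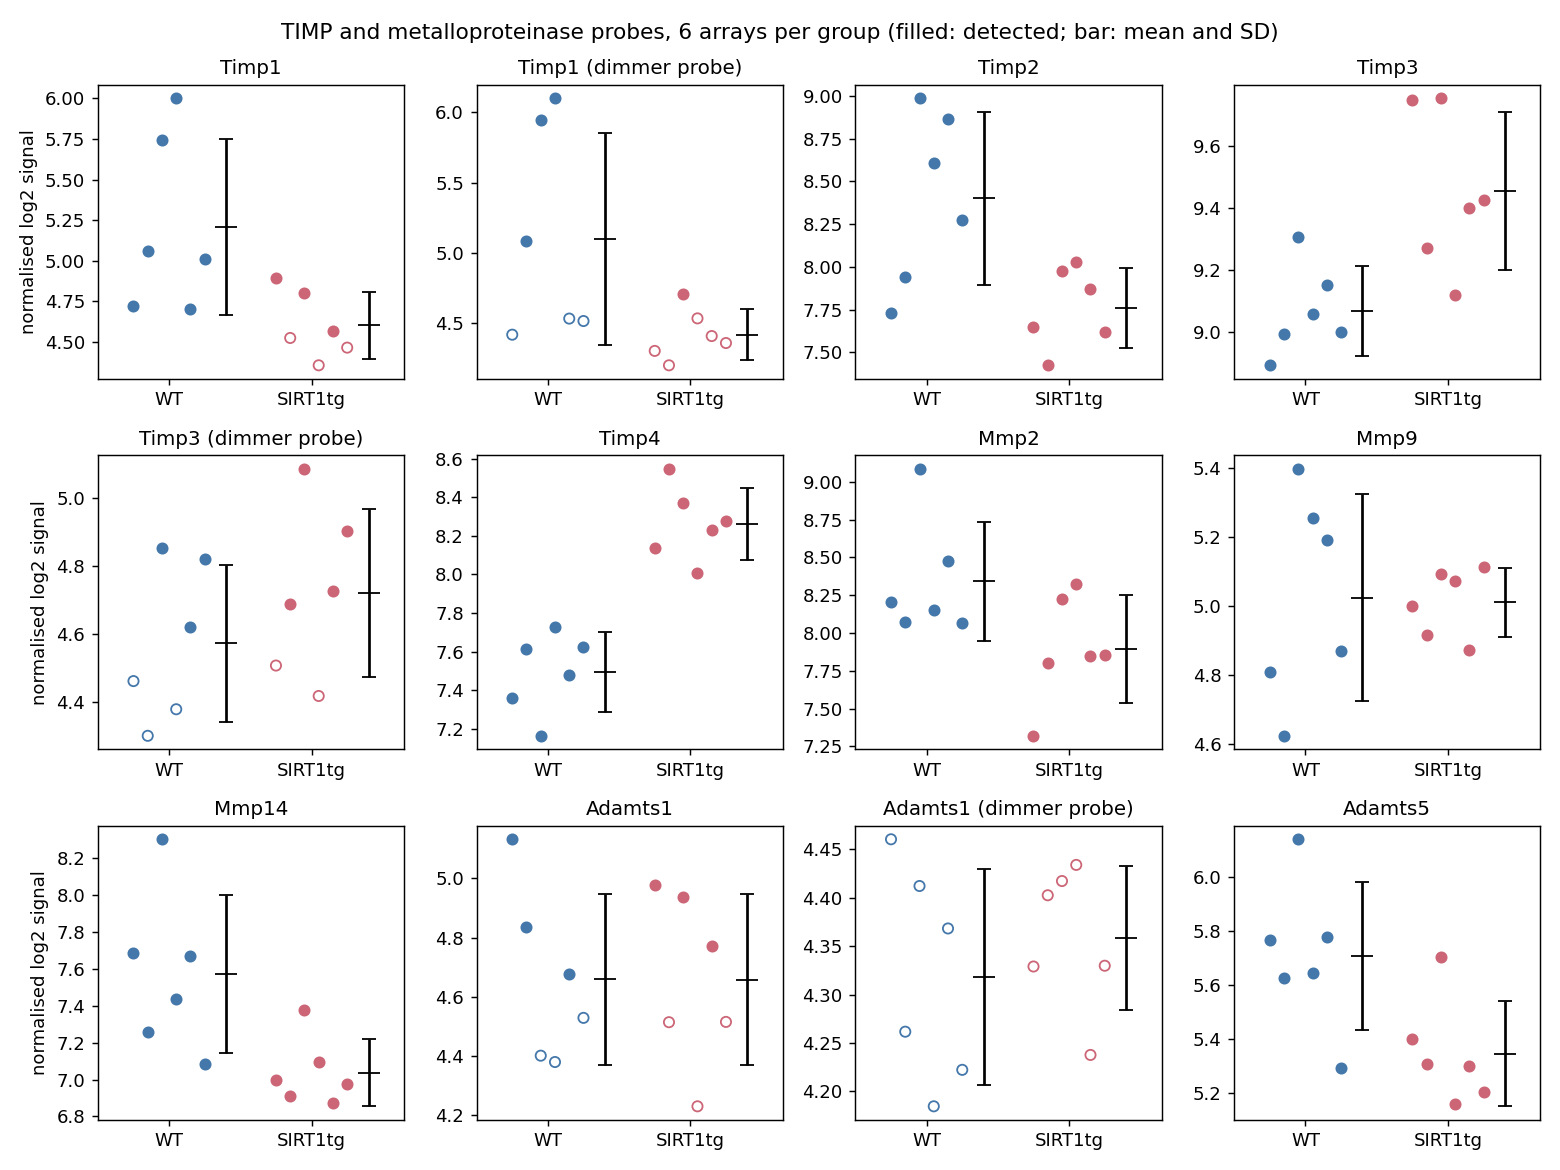
Normalised log2 signal (vertical axis, scaled per panel) of each of the 12 probes on the 6 WT (blue) and 6 SIRT1tg (red) arrays; filled points are detected, open points are not, and the black bar gives the mean and SD. Timp4 is the member whose groups do not overlap, with WT arrays up to 7.72 and SIRT1tg arrays from 8.01.

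Timp4 is the inhibitor with the most restricted expression in the family, known from heart, brain and fat. Its single probe read 7.16 at the lowest, 7.55 at the median and 7.72 at the highest over the 6 WT arrays. Over the 6 SIRT1tg arrays it read 8.01, 8.26 and 8.55. All 6 SIRT1tg arrays thus lay above all 6 WT arrays, a separation seen in 1.32% of all genes. The log2 difference was 0.77 ± 0.11 (SE, n = 6 per group; 95% interval 0.52 to 1.02; limma adjusted p = 0.0166), and the two-sided exact permutation p was 0.00216, the smallest that 924 splits allow. In the table of processed signals that the authors deposited, Timp4 averaged 183 ± 27.3 for WT and 322 ± 43.5 for SIRT1tg (SD, n = 6) on a linear scale, with a highest WT sample of 216 and a lowest SIRT1tg sample of 266 (limma adjusted p = 0.0192).

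The Timp4 difference was 0.97 in the low and 0.57 in the high number range, and the difference between the ranges did not pass (-0.41 ± 0.21, SE; limma adjusted p = 0.71). Blocking on the range gave an adjusted p of 0.0237, where 1.05% of all genes were called. The call was lost when SIRT1tg 2, 3, 5 or 6 was left out, while the size of the difference changed little. The limma adjusted p was then 0.0529, 0.0687, 0.0516 and 0.0629. The log2 differences were 0.71, 0.75, 0.78 and 0.77. Each of these fits called 3 of all genes, against 12 with all 12 arrays. Median scaling also ended the Timp4 call (0.67, limma adjusted p = 0.101), and it too called 3 of all genes.

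Timp3, which binds the extracellular matrix, had the strongest signal of the members. Its bright probe read 8.89, 9.03 and 9.31 in WT (lowest, median and highest of 6) and 9.12, 9.41 and 9.75 in SIRT1tg. The groups overlapped: WT 3, the highest of its group, lay above SIRT1tg 2 and 4, and WT 5 above SIRT1tg 4. The log2 difference was 0.39 ± 0.12 (SE; 95% interval 0.13 to 0.64; limma adjusted p = 0.145), at 0.53 in the low and 0.24 in the high range. A further Timp3 probe, detected on 3 WT and 4 SIRT1tg arrays and close to background, stood at 0.15 (95% interval -0.13 to 0.43).

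Timp2, the inhibitor that also takes part in MMP2 activation, read 7.73, 8.44 and 8.99 in WT and 7.42, 7.76 and 8.03 in SIRT1tg. The 4 arrays WT 3 to WT 6 lay above every SIRT1tg array, and WT 1 and WT 2 did not. The log2 difference was -0.64 ± 0.20 (SE; 95% interval -1.07 to -0.21; limma adjusted p = 0.147). Leaving out WT 1 brought it to -0.77, past the threshold (limma adjusted p = 0.0437). That fit called 151 of all genes, against 12 with all 12 arrays. Of the 12 fits without a single array, it was the 1 in which Timp2 passed.

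The upstream windows of Timp4, which rose, and of Timp2, which differed the other way without passing, are shown to set their base composition side by side. They are the 250 bases before the annotated start, from RefSeq (GRCm38.p6; 7 of the 10 members have a window in that table). The Timp4 window is chr6:115252206-115252455 and the Timp2 window chr11:118355412-118355661, both read on the minus strand.
Timp4: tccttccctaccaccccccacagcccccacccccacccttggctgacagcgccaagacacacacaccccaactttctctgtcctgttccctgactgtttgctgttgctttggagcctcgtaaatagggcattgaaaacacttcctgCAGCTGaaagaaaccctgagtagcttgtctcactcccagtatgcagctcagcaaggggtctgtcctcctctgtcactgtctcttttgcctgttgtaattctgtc
Timp2: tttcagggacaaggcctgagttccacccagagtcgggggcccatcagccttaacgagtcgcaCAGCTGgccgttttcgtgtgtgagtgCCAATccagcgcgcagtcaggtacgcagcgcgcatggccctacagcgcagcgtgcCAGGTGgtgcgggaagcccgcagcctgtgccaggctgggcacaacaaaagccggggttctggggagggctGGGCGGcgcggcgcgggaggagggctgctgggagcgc
Capitals mark motif matches on either strand. The motifs searched were AP-1 (TGANTCA), the GC box (GGGCGG), the E-box (CANNTG), the nuclear receptor motif (AGGTCA), a FOXO site (TGTTTAC), the CCAAT box (CCAAT) and the TATA box (TATAAA), and no matches overlapped in these 2 windows. The Timp4 window held 1 E-box and 2 CpG dinucleotides at 53.6% G and C. The Timp2 window held 2 E-boxes, 1 GC box, 1 CCAAT box and 21 CpG dinucleotides at 68% G and C. Of all 32851 windows in the table, 66.2% held an E-box, 32.7% a GC box and 33.85% a CCAAT box, and the median was 6 CpG at 52.4% G and C. A match is a description of these letters, and nothing in these arrays tests a site.

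Timp1, which is induced by inflammatory cytokines in many tissues, was dim. Its brighter probe was detected on 6 WT arrays, enough on their own to pass the detection filter, and on 3 SIRT1tg arrays. It read 4.70, 5.04 and 6.00 in WT and 4.36, 4.55 and 4.89 in SIRT1tg, a log2 difference of -0.61 ± 0.21 (SE; limma adjusted p = 0.178). So near background the size depends on the correction, and it was -0.30 with an offset of 50 and -0.18 without background correction. WT 4 (6.00) and WT 3 (5.75) were the highest of all arrays, and the other WT arrays reached 5.06. The macrophage markers were highest on the same arrays, at 1.01 on WT 3 and 0.82 on WT 4, against -0.27 to 0.07 on the other WT arrays and -0.54 to 0.22 in SIRT1tg. Those values are the mean log2 signal of 13 tested markers, centred over the 12 arrays. Without WT 3 and WT 4 the Timp1 difference was -0.27 (adjusted p = 0.408). The other Timp1 probe was detected on 3 WT arrays and 1 SIRT1tg array and was not tested, and its means were 5.10 and 4.42.

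**Figure D2:**
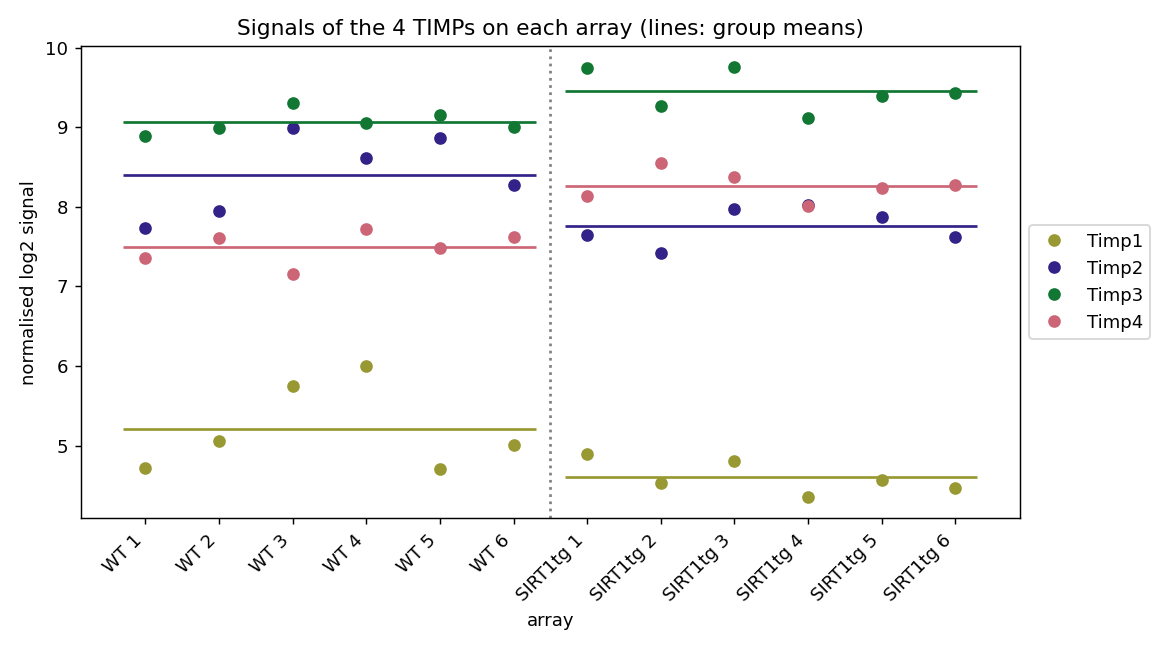
Normalised log2 signal (vertical axis) of the brightest probe of each TIMP on every array (horizontal axis), with group means as lines. Timp3 is on top on all 12 arrays, Timp2 lies above Timp4 on all 6 WT arrays, and Timp4 lies above Timp2 on 5 of 6 SIRT1tg arrays.

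Ordered by signal, the TIMPs ran Timp3, Timp2, Timp4 and Timp1 on all 6 WT arrays. On 5 of 6 SIRT1tg arrays the order was Timp3, Timp4, Timp2 and Timp1, and SIRT1tg 4 kept the WT order, with Timp4 minus Timp2 at -0.017. Probes differ in how well they capture their transcript, so the order is one of probe signals and does not rank transcript abundance. Timp4 minus Timp2 averaged -0.91 ± 0.59 in WT (SD, n = 6; -1.82 to -0.33) and 0.50 ± 0.38 in SIRT1tg (-0.017 to 1.12), on the log2 scale, so the groups did not overlap. Timp3 minus Timp2 was 0.67 ± 0.38 in WT and 1.69 ± 0.35 in SIRT1tg, and the highest WT array (1.16) lay above the lowest SIRT1tg array (1.09). The pair Timp4 and Timp2 was singled out after its values were seen. Timp4 alone already separated the groups, and the share of other gene pairs that do so was not computed. Against all probes of the array, the mean signal of Timp3 stood at the 94.0th percentile in WT and the 95.3rd in SIRT1tg, Timp2 at the 91.1st and 87.6th, Timp4 at the 85.9th and 90.4th, and Timp1 at the 66.6th and 57.3rd.

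Among the proteases, Mmp14 read 7.08, 7.55 and 8.30 in WT (lowest, median and highest) and 6.87, 6.99 and 7.38 in SIRT1tg. The groups overlapped, with WT 3 the highest of all arrays. The log2 difference was -0.53 ± 0.17 (SE; 95% interval -0.90 to -0.17; limma adjusted p = 0.154). Mmp2, the gelatinase that MMP14 activates, read 8.07, 8.18 and 9.09 in WT and 7.32, 7.85 and 8.32 in SIRT1tg, and WT 3 was again the highest. Its log2 difference was -0.45 ± 0.19 (SE; 95% interval -0.86 to -0.04; limma adjusted p = 0.277), at -0.67 in the low and -0.22 in the high range. Without WT 3 the differences were -0.39 for Mmp14 and -0.30 for Mmp2, neither of which passed.

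Adamts5, an aggrecanase that also cuts versican, read 5.29, 5.70 and 6.14 in WT and 5.16, 5.31 and 5.70 in SIRT1tg. The log2 difference was -0.36 ± 0.13 (SE; 95% interval -0.64 to -0.08; limma adjusted p = 0.202), and it was -0.37 in the low and -0.35 in the high range. With an offset of 50 it was -0.21, and without background correction -0.13. All WT arrays but WT 6 lay above all SIRT1tg arrays but SIRT1tg 3. Mmp9, a gelatinase of neutrophils and macrophages, was dim but detected on all 12 arrays. It read 4.62, 5.03 and 5.40 in WT and 4.87, 5.04 and 5.11 in SIRT1tg, with a 95% interval of -0.28 to 0.26 for the log2 difference. The WT arrays spread more widely (SD 0.30) than the SIRT1tg arrays (SD 0.10). Adamts1, a protease that cuts versican and aggrecan, was detected on 3 arrays of each group at its brighter probe (95% interval of the difference -0.33 to 0.33) and on 0 of 12 at its other probe.

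**Figure D3:**
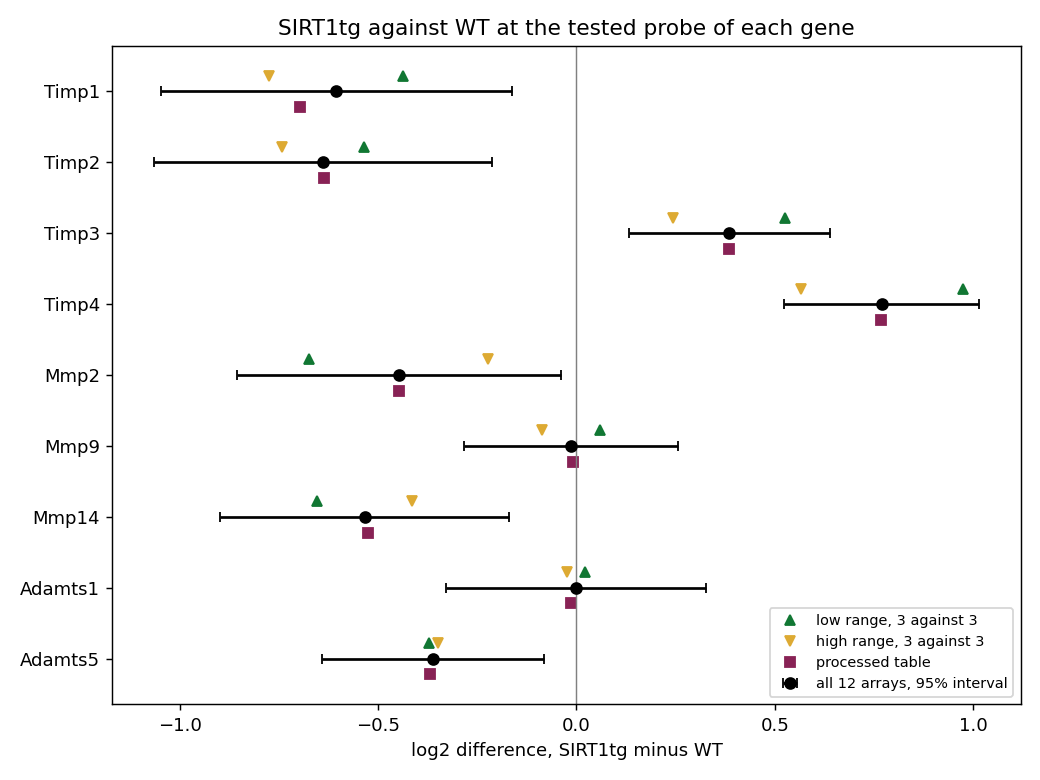
Log2 difference, SIRT1tg minus WT (horizontal axis), at the tested probe of each of the 9 genes (vertical axis): black points with 95% intervals for all 12 arrays, triangles for each number range alone and squares for the processed table. The interval of Timp4 runs from 0.52 to 1.02, and the Mmp9 and Adamts1 intervals span 0.

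In the processed table all 9 differences had the same sign. On its linear scale Timp3 averaged 572 ± 61.7 in WT and 757 ± 134 in SIRT1tg, Timp2 372 ± 129 and 224 ± 38.7, Mmp2 351 ± 116 and 251 ± 62.9, Mmp14 200 ± 69.6 and 130 ± 19.2, and Adamts5 43.2 ± 11.4 and 29.6 ± 6.79 (SD, n = 6 each). Timp1 averaged 27.3 ± 18.0 in WT and 9.41 ± 5.05 in SIRT1tg. None of these passed there (limma adjusted p from 0.153 for Timp3 to 0.284 for Mmp2). A difference of the genotype effect between the number ranges passed for 0 of 9 members (limma adjusted p of the interaction from 0.71 to 0.988). It passed for 0.0124% of all genes. With so few arrays in each range, equal effects cannot be shown. At an unadjusted p under 0.05 the interaction held for 0 of 9 members and 7.37% of all genes.

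Markers of other cell types were read on the same arrays. The fibroblast markers' centred mean log2 signal over 12 genes ran from -0.12 to 0.63 in WT and from -0.41 to -0.03 in SIRT1tg, 10 of 12 being lower. The macrophage markers were lower at 12 of 13 genes. Of all 8035 genes tested, 4257 were lower and 3778 higher. The endothelial markers ran from -0.36 to 0.08 in WT and from -0.03 to 0.33 in SIRT1tg, 11 of 14 being higher. The 3 lower ones were Egfl7 (-0.04), Pecam1 (-0.02) and Tek (-0.003). Of the 14, 2 passed once the number range was blocked, a fit that called 1.05% of all genes. They were the transcription factors Sox17 (0.61) and Sox18 (0.63), with limma adjusted p = 0.038 and 0.0462. The skeletal muscle markers were lower at 16 of 16 genes, with 0 at an unadjusted p under 0.05 (limma). A muscle signal above the overall mean was read on 4 WT arrays but 1 SIRT1tg array. That signal averaged 0.59 in WT (-1.69 to 2.43) and -0.59 in SIRT1tg, where SIRT1tg 5 read 2.82 and the others from -1.66 to -0.016. None of the markers passed singly in the fit without covariates. Their part in the differences of the members was not tested, and in whole tissue fewer cells of a type and less RNA per cell cannot be told apart. With the muscle signal as a covariate the Timp4 difference was 0.79 (limma adjusted p = 0.0153). Without the 5 arrays above the mean muscle signal it was 0.88 and did not pass (adjusted p = 0.0861).

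Within groups, 72 relations between a member and a marker list were computed over the 12 arrays, after removing each group's mean, and 1 passed after Benjamini-Hochberg adjustment. Adamts1 followed the smooth muscle and pericyte markers (Pearson r = 0.89, permutation adjusted p = 0.036; Spearman rho = 0.90, adjusted p = 0.0389; r = 0.84 without the 2 arrays farthest from the median). The r was 0.93 in the low and 0.92 in the high range. Adamts1 was detected on only 3 arrays of each group, and any relation at all passed in 1 of 8 other settings and in 3 of 12 fits that left out a single array. Timp1 and the macrophage markers gave r = 0.90 (permutation p = 0.00268, adjusted p = 0.0965) and rho = 0.79 (permutation p = 0.0114, adjusted p = 0.263), with r = 0.82 without the 2 farthest arrays and 0.97 and 0.90 in the low and high range. Timp3 and the macrophage markers gave r = 0.68 (permutation p = 0.00593, adjusted p = 0.142) and rho = 0.60, with r = 0.91 in the low and -0.07 in the high range. Timp1 and the 3 tested neutrophil markers gave r = 0.62 (permutation p = 0.00937, adjusted p = 0.169) and rho = 0.58, with r = 0.54 and 0.86 within the ranges. Timp2 and the fibroblast markers gave r = 0.81 (permutation p = 0.0123, adjusted p = 0.178) and rho = 0.77 (permutation p = 0.0174, adjusted p = 0.263), with r = 0.82 without the 2 farthest arrays and 0.98 and 0.77 within the ranges. Timp4 and the brown adipocyte markers gave r = -0.43 (permutation p = 0.187, adjusted p = 0.489) and rho = -0.43 (permutation p = 0.191, adjusted p = 0.653), with r = -0.33 without the 2 farthest arrays and -0.61 and -0.56 within the ranges.

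**Figure D4:**
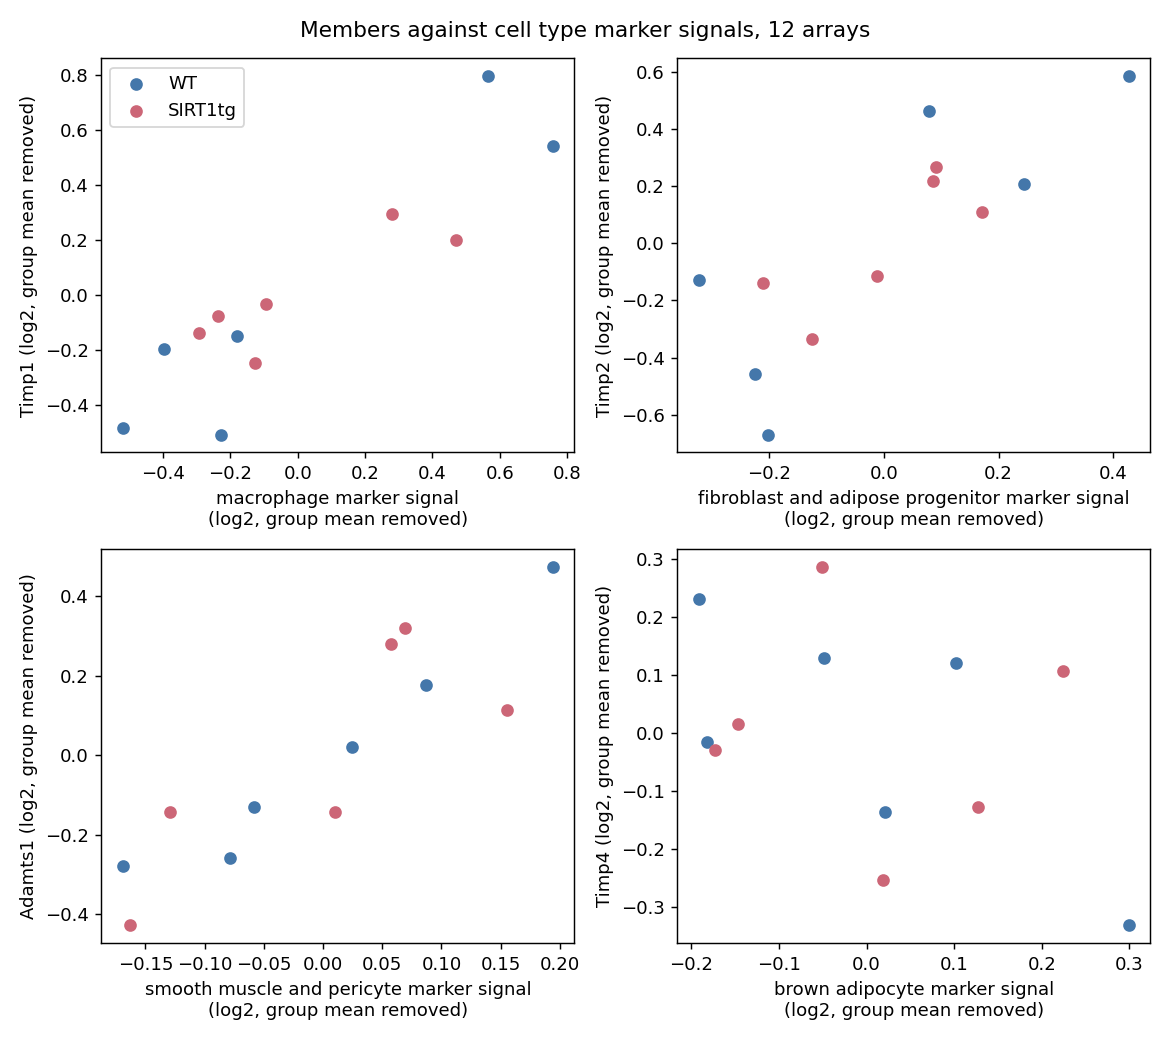
Log2 signal of a member (vertical axis) against the mean log2 signal of a marker list (horizontal axis) on 12 arrays, both with the mean of their group removed, WT in blue and SIRT1tg in red. Adamts1 against smooth muscle and pericyte markers (r = 0.89) is the relation that passed with all 12 arrays, though a relation passed in only 3 of 12 fits without a single array, and Timp4 shows none with the brown adipocyte markers that passed (r = -0.43).

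By the Pearson correlation of log2 signals over all 12 arrays, the genes most like Timp4 were 4430402I18Rik (r = 0.93), Ankrd46 (0.91) and Dlk1 (0.89). These values include the difference between the groups, and with the group means removed they were 0.70, 0.73 and 0.36. Most like Timp3 were Sox18 (0.87), Robo4 (0.86) and Cdkn1a (0.86), and within groups 0.72, 0.75 and 0.70. Timp2 lay closest to Serping1 (0.95), Folr2 (0.93) and Aebp1 (0.93), Timp1 to Rab7b (0.97), Aldh3b1 (0.96) and Cyba (0.96), and Mmp2 to Pdgfc (0.93), Aebp1 (0.91) and Tpp1 (0.88). Mmp14 and Adamts5 were among the nearest genes of each other (r = 0.94, and 0.89 within groups). The further neighbours were Hmgn2 (0.91) and Bicc1 (0.91) for Mmp14, Nceh1 (0.94) and Mef2c (0.91) for Adamts5, Cbr2 (0.83), Mgl2 (0.82) and Folr2 (0.79) for Mmp9, and Apbb2 (0.95), Wwc2 (0.86) and Pheta1 (0.84) for Adamts1. Each set of 3 was picked as the highest among all other tested genes on the same 12 arrays.

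Other genes of matrix turnover were read from 5 lists. Of 19 further matrix metalloproteinases 17 had a probe and 6 were tested, and 0 rose or fell (limma, with 0 at an unadjusted p under 0.05). Mmp1a (0.20) and Mmp23 (-0.04) were the brightest, and Mmp17 stood at 0.01, Mmp13 at -0.17 and Mmp11 at -0.22. Of 12 ADAM proteases 7 were tested and 0 passed (limma, with 1 at an unadjusted p under 0.05, beside 15.2% of all genes). That one was Adam9, a membrane sheddase, at 0.50 ± 0.14 (SE; adjusted p = 0.108), while Adam12 stood at 0.37, Adam15 at -0.17, Adam23 at -0.27 and Adam17, the sheddase that TIMP3 blocks, at 0.03. Of 23 further ADAMTS and ADAMTS-like genes 2 were tested, Adamts4 (0.05) and Adamtsl4 (-0.12), and 0 passed (limma, with 0 at an unadjusted p under 0.05).

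Among activators, other inhibitors and receptors, 10 of 25 were tested and 0 passed by limma. At an unadjusted p under 0.05, 1 was higher and 2 lower, beside 7.62% and 7.63% of all genes. Cd63, a tetraspanin that binds TIMP1 at the cell surface, averaged 9.35 ± 0.36 over WT and 8.50 ± 0.27 over SIRT1tg arrays (SD, n = 6), a log2 difference of -0.85 ± 0.17 (SE; adjusted p = 0.0543), with -0.62 and -0.48 at its other probes. It passed once the number range was blocked (adjusted p = 0.038), as did the secreted serpin Serpinf1 (-0.74; adjusted p = 0.0432, against 0.0832 without the block). The blocked fit called 1.05% of all genes. Lrp1, an endocytic receptor that clears proteases and TIMPs, stood at 0.46 and the collagen chaperone Serpinh1 at 0.17. The brightest, the cathepsin inhibitor Cst3 and the proprotein convertase Furin, stood at -0.08 and 0.07.

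Of 30 matrix substrates and cross-linkers 21 were tested, 16 of them lower in SIRT1tg, with a median log2 difference of -0.30 beside -0.01 over all genes. None passed (limma, with 2 higher and 10 lower at an unadjusted p under 0.05, beside 7.62% and 7.63% of all genes). The smallest p values among the lower ones were those of Lum, a collagen-binding proteoglycan (-1.07; adjusted p = 0.0627), and Col6a1 (-0.53; adjusted p = 0.0919), and the brightest were Dcn (-0.37) and Sparc (-0.31). The higher ones with the smallest p were the laminin chain Lamb1 (0.70, limma adjusted p = 0.0627) and Eln, elastin (0.29). Blocking on the range gave Lamb1 a limma adjusted p of 0.0495, where 1.05% of all genes were called. Lamb1 was detected on 3 WT and 6 SIRT1tg arrays and so passed the detection filter through SIRT1tg alone. The list shares 5 genes with the fibroblast markers (Col1a1, Col1a2, Col3a1, Dcn and Lum), so the lower values of both are in part the same values. Without WT 3 and WT 4 its median was -0.20, with 2 higher and 6 lower at an unadjusted p under 0.05. For that smaller fit the share of all genes at this level was not taken. Of the members, 6 were then lower and 3 higher, with a median of -0.27, and Timp4 passed (0.75, adjusted p = 0.0277).

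**Figure D5:**
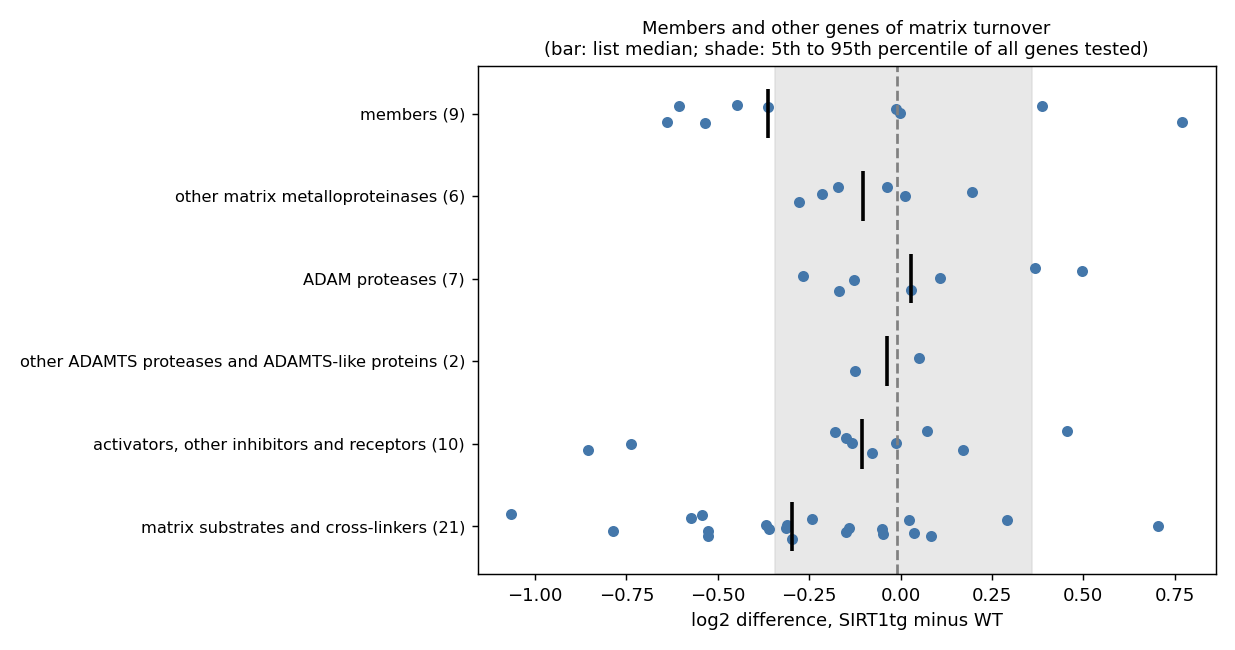
Log2 difference, SIRT1tg minus WT (horizontal axis), of each tested gene in the set and in 5 lists of matrix turnover (vertical axis, number tested in brackets), with the list median as a bar, the 5th to 95th percentile of all genes shaded (-0.34 to 0.36) and their median dashed. The member furthest to the right is Timp4 at 0.77, and the substrate furthest to the left is Lum at -1.07.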

How the data were processed

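Biotinylated cRNA from 6 WT and 6 SIRT1tg samples was read on Illumina bead arrays, as the labels' protocols state. GenomeStudio is the tool named in the submitters' processing notes. The authors deposited mean bead signals, which are non-normalised intensity values, and a detection p-value per probe, per the file headers. A further deposited table holds intensity values processed by the authors: by its values linear, not centred and background-subtracted (26.1% at or below 0), with an upper quartile of 57.7 in every column and medians from 5.70 to 5.76. The sources used here do not give its normalisation.

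Signals were background-corrected from the detection p-values and quantile-normalised (neqc, limma 3.58.1, R 4.3.3; offset 16). Of 25697 probes, 23978 carry 1 gene symbol and 1719 several or none. Named probes detected on at least 6 of 12 arrays were kept (10771), and each gene was read at its brightest probe, giving 8035 genes. Groups were compared with lmFit and eBayes without covariates. For the processed table, values below 0 were set to 0 and 16 was added before log2. Correlations used 100000 permutations within groups. Columns of the non-normalised table give the group but not the replicate. Of the code, the limma comparison of the groups was tested on simulated data.

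Named genes were all probes of the members, per list up to 2 genes per direction with the smallest p and the 2 brightest, and the 3 genes most like each member; Adam17 and the synapsin genes in the closing part were added after their values were seen. The members and lists were chosen with earlier results of these data known. Alternatives were other background corrections, scalings, filters and probe choices, the processed table, weights, a robust prior, the number range, the muscle signal and leaving out arrays; leaving out WT 3 and WT 4 was added after seeing the data.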

Additional observations from a re-analysis of the deposited data

How the results depend on the processing

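The count of 12 genes past the threshold over all 8035 moved to 3 with median scaling (which shifted the median of all genes from -0.01 to -0.096), 5 on the processed values with the replicate number as a block, 26 with detection on all 12 arrays, 163 with array weights, 24 with a robust trended prior, 84 with the number range as a block, 1 and 4 in the low and high range alone, 66 with the muscle signal as a covariate and 21 without the 5 arrays above the mean muscle signal. Leaving out single arrays gave 3 to 151. Timp4 kept its direction in all 18 alternatives besides single arrays and its call in 13. The call was lost with median scaling (0.67), on the processed values with the replicate block (0.77, adjusted p = 0.0575), in the low (0.97) and high (0.57) range alone and without those 5 arrays (0.88), and the count of called members was then 0. Leaving out single arrays gave 0 to 2 called members and Timp4 values from 0.70 to 0.82. The replicate numbers share no stated source, so same-numbered samples were not taken as pairs. In their deviations from the group means they correlated between -0.14 and 0.50. For WT replicates 1, 3 and 5 the closest SIRT1tg sample had the same number, and for 2, 4 and 6 it had another. These values cannot settle whether the numbers pair the samples. A difference of the genotype effect between ranges passed for 0 members in every alternative run. The relation that passed between a member and marker signals was lost (0 passed) with an offset of 50, without background correction, with median scaling, cyclic loess, detection on all 12 arrays, the mean of a gene's probes and without WT 3 and WT 4, and leaving out single arrays gave 0 to 2, with 3 of 12 above 0. The differences of Mmp9 and Adamts1 lay near 0 and changed sign: Mmp9 to 0.0092 with array weights, 0.060 in the low range and 0.14 without WT 3 and WT 4 (-0.094 to 0.061 without single arrays), and Adamts1 to 0.011 with cyclic loess, 0.021 in the low range, 0.035 with the muscle covariate and 0.16 without the 5 arrays above (-0.066 to 0.092 without single arrays). The cause of these shifts was not tested. Signals near background limit Timp1, Mmp9, Adamts1 and Adamts5.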

Other observations

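In the RefSeq gene table, 3 of the 10 members lie within a synapsin gene: Timp1 within Syn1, Timp3 within Syn3 and Timp4 within Syn2. Synapsins are vesicle proteins of nerve terminals. Syn1 was detected on 0 of 12 arrays at 1 probe and on 1 array at the other, and Syn3 on 0 of 12. Syn2 was detected on 5 WT and 6 SIRT1tg arrays, close to background, and averaged 4.92 ± 0.36 for WT and 5.50 ± 0.61 for SIRT1tg (SD, n = 6), a log2 difference of 0.58 ± 0.24 (SE; limma adjusted p = 0.277). The SIRT1tg arrays reached 6.59, and the lowest of them (4.91) lay within the WT arrays (4.50 to 5.49).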
